A study of Mus musculus with 6 samples.

Results

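Lipid droplets and the lipases that empty them were examined through 10 genes, chosen by name for their known function, in a table of 55291 genes from dorsal skin of wild-type and tight-skin (Tsk) mice. All 10 genes were in the table and passed the filter on low counts, which left 19971 genes tested. They are the droplet coat genes Plin1, Plin2, Plin4 and Plin5, the droplet fusion genes Cidec and Cidea, the lipase genes Lipe, Pnpla2 and Mgll, and the lipase inhibitor gene G0s2. The wild-type group (WT) held 3 samples of strain C57BL/6. The Tsk group held 3 samples of strain B6.Cg-Fbn1Tsk/J, whose genotype is given as Fbn1+/-, where Fbn1 encodes fibrillin 1. Samples were taken at day 40, and no treatment is named. Because whole skin was used, fewer cells of a type and less RNA per cell cannot be told apart in any value given here.

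A lipid droplet is a core of triglyceride under a coat of perilipin proteins. In fat cells, perilipin 1 shields the core, and its phosphorylation after adrenergic stimulation lets lipases reach it. Adipose triglyceride lipase (Pnpla2), hormone-sensitive lipase (Lipe) and monoglyceride lipase (Mgll) then remove the fatty acids in turn. Skin holds a dermal layer of white fat, and sebocytes of the sebaceous gland and muscle fibres also carry droplets.

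Library totals ran from 17561453 to 19219814 counts. Levels are given as CPM, counts scaled to a common library total after trimmed-mean (TMM) scaling. Fbn1, the gene named in the genotype, rose by 2.54 ± 0.24 on the log2 scale in Tsk (SE) with an edgeR adjusted p of 0.00402. Its Tsk allele carries an internal duplication, so that counts on the gene include the duplicated exons. The rise is a transcript level and does not by itself show the genotype. Markers of keratinocytes, dermal fibroblasts, macrophages, sebaceous gland, skeletal muscle and fat were detected in each library. Skeletal muscle markers summed to 151800 to 275200 CPM in WT and 119100 to 145100 CPM in Tsk. One Tsk library, replicate 5, stood apart in the fat genes. Ucp1, the uncoupling protein that defines thermogenic fat, had 1536 counts there, 2 counts each in WT replicate 1 and Tsk replicate 4, and 0 in the other 3 libraries. Fold changes of the 10 genes are therefore also given without Tsk replicate 5, and the part of thermogenic fat in it was not tested.

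Upstream sequences are shown for the 4 genes whose WT and Tsk libraries did not overlap, so these genes were picked by their outcome. Where a gene had more than 1 window, the window printed is the one that held a match. They are the 250 bases before an annotated RefSeq start on GRCm38.p6, written 5′ to 3′ on the gene's strand, and capitals mark a match to a C/EBP site (TTGCNNAA) or an E-box (CACGTG).
Plin1, chr7:79732777-79733026, minus strand: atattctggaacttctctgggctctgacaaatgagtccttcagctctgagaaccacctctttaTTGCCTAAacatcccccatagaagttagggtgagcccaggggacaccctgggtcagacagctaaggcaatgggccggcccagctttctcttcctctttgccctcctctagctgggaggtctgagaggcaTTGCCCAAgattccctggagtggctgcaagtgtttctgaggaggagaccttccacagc
Cidec, chr6:113434765-113435014, minus strand: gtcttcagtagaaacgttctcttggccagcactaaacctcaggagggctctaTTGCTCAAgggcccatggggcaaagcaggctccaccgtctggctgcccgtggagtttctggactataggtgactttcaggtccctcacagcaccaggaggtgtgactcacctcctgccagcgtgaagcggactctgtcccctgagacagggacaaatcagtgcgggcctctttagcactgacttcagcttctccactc
Lipe, chr7:25395988-25396237, minus strand: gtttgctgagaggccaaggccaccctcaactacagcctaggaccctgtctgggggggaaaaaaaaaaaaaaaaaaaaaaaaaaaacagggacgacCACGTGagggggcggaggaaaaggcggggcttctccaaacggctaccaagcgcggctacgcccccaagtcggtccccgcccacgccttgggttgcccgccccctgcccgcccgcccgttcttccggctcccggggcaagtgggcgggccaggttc
Mgll, chr6:88724162-88724411, plus strand: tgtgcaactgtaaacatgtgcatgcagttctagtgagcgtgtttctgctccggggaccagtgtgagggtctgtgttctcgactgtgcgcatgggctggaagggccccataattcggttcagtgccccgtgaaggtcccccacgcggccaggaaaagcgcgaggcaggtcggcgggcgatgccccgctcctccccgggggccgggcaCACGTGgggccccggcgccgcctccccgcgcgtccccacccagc
C/EBP factors and PPAR gamma are the main transcription factors of fat cells. The Plin1 window held 2 C/EBP matches, at bases 187 to 180 and 58 to 51 before the start, and the Cidec window held 1, at bases 198 to 191. The Lipe and Mgll windows each held 1 E-box. On either strand, 9.56% of the 32851 RefSeq windows of this length held the C/EBP letters and 6.02% the E-box. Of the 13 windows of the 9 genes searched here, 2 held the C/EBP letters and 2 the E-box. A link of these motifs to the separation of the groups was not tested. The nuclear receptor recognition hexamer AGGTCA, found in 14% of windows, was present in those of Plin2 and Plin5. A direct repeat of AGGTCA with 1 free base between the copies, the PPAR form, was in 0.0335% of all windows and in none of the 13 windows of the 9 genes searched here. A match describes letters only, and Cidec, Lipe, Mgll and Plin5 each have a second annotated start whose window held none of these motifs.

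Of the 10 genes, 4 had every Tsk library above every WT library, Plin1, Cidec, Lipe and Mgll, against 14.1% of all genes tested. The mean was higher in Tsk for all 10, and their median log2 fold change was 1.20, against -0.03 over all genes tested. Of the 19971 genes tested, 9387 had a log2 fold change above 0. None of the 10 passed the threshold, an edgeR adjusted p under 0.05, which 2.72% of genes passed as higher and 3.42% in either direction. The same 4 genes had an unadjusted edgeR p under 0.05, as did 12.1% of all genes as higher, and all 4 passed with DESeq2, where 5.79% of genes were called higher. Tsk replicate 5 was the highest of the 6 libraries for 10 of the 10 genes and for 15.1% of all genes tested. Without it the median of the 10 fell to 0.28, and 7 of the 10 had a log2 fold change above 0.

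**Figure D1:**
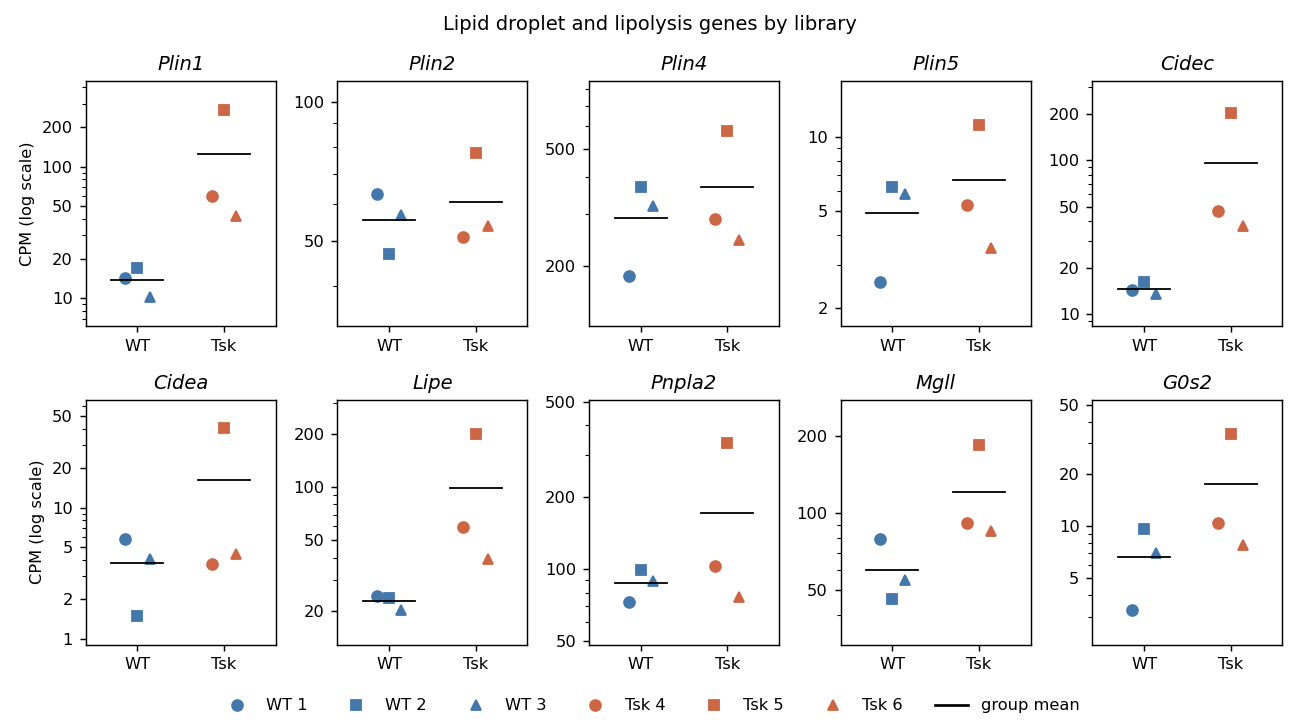
CPM of each gene (log axis) in the 3 WT and 3 Tsk libraries, with symbols marking the library and a line at the group mean. Tsk replicate 5 is the highest point in every panel, and the other 2 Tsk libraries lie above WT for Plin1, Cidec, Lipe and Mgll.

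Plin1, the perilipin of fat cell droplets (chromosome 7, 79720218 to 79732903 on mm10, minus strand), stood at 14.3, 17.1 and 10.2 CPM in WT replicates 1 to 3 and at 60.1, 270.7 and 41.9 CPM in Tsk replicates 4 to 6. The lowest Tsk library was thus 2.44 times the highest WT library. The log2 fold change was 3.16 ± 0.72 (SE, edgeR adjusted p = 0.0645), with a 95% interval of 1.46 to 4.86. Without Tsk replicate 5 it was 1.88 and passed (edgeR adjusted p = 0.0142), as it did at 3.58 without Tsk replicate 6 (edgeR adjusted p = 0.0339).

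The other 3 coat genes did not separate the groups. Plin2, the coat of droplets in most cell types (chromosome 4, 86648386 to 86670060, minus strand), stood at 63.1, 47.0 and 56.8 CPM in WT and 51.1, 77.4 and 53.9 CPM in Tsk. Its change of 0.13 ± 0.19 on the log2 scale (SE, edgeR adjusted p = 0.756) had the narrowest interval of the 10 genes, -0.29 to 0.55. Plin4, a coat of fat and muscle (chromosome 17, 56100591 to 56109803, minus strand), stood at 185.1, 371.3 and 320.1 CPM in WT and 289.0, 574.3 and 245.7 CPM in Tsk. Plin5, the perilipin of oxidative tissues such as muscle, lies next to Plin4 on the same strand (56111601 to 56117596). It had 46, 97 and 94 counts in WT and 102, 240 and 75 in Tsk, the lowest counts among the coat genes. WT replicate 1 was the lowest library for Plin4 and Plin5, and it also held the lowest WT sum of skeletal muscle markers, 151800 CPM against 275200 and 242400. The Tsk libraries had lower muscle sums still, 119100 to 145100 CPM, with Plin4 and Plin5 above WT replicate 1 in each. The part of muscle in these values was not tested. Log2 fold changes were 0.34 ± 0.36 for Plin4 and 0.46 ± 0.46 for Plin5 (SE), with 95% intervals of -0.49 to 1.18 and -0.61 to 1.52. Without Tsk replicate 5, Plin2, Plin4 and Plin5 turned to -0.08, -0.13 and -0.15.

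Cidec, which joins droplets into the single large one of white fat cells (chromosome 6, 113424634 to 113435760, minus strand), stood at 14.3, 16.2 and 13.4 CPM in WT and 46.7, 204.3 and 37.1 CPM in Tsk. The 3 WT libraries lay within a factor of 1.21 of each other, and the lowest Tsk library was 2.29 times the highest of them. Its log2 fold change was 2.71 ± 0.65 (SE, edgeR adjusted p = 0.0737). It passed without Tsk replicate 5, at 1.52 (edgeR adjusted p = 0.00919), and without Tsk replicate 6, at 3.10 (edgeR adjusted p = 0.0396).

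Cidea, the related gene best known from brown fat and sebaceous gland, was high in 1 library. It stood at 5.78, 1.49 and 4.09 CPM in WT and at 3.73, 40.6 and 4.46 CPM in Tsk, so that Tsk replicates 4 and 6 lay inside the WT range. Tsk replicate 5 was 9.93 times the mean of the other 2 Tsk libraries, the largest such ratio among the 10 genes, for which it ran from 1.47 upward. The log2 fold change of Cidea was 2.09 ± 0.99 (SE, edgeR adjusted p = 0.296), and 0.10 without Tsk replicate 5.

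Genes of thermogenic fat and of the sebaceous gland are given beside Cidea. In Tsk replicate 5, Ucp1 reached 71.7 CPM. Otop1, also known from brown fat and named after its values were seen, had 198 counts there and 1 to 11 in the other libraries. Dio2, the deiodinase of brown fat, had 167 counts against 34 to 58. Cox8b, a cytochrome oxidase subunit gene shared by brown fat and muscle, was at 98.6 CPM in Tsk replicate 5 and at 124 CPM in WT replicate 2. Of the 8 thermogenic markers, 3 were highest in Tsk replicate 5 (Ucp1, Dio2 and Prdm16) and 4 in WT replicate 2 (Cox8b, Cox7a1, Ppargc1a and Cpt1b). WT replicate 2, the lowest library for Cidea, was also the lowest for the sebaceous genes Awat1, Fa2h, Far2 and Krt79, with Fa2h at 3.95 CPM against 27.0 to 45.2 in the other 5 libraries. Of the 12 sebaceous markers 9 were lowest there, the exceptions being Awat2, Dgat2l6 and Mc5r. Elovl3, a fatty acid elongase of brown fat and sebaceous gland, had 9 counts in WT replicate 2 and 89 to 149 elsewhere. The part of either cell type in the Cidea values was not tested.

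**Figure D2:**
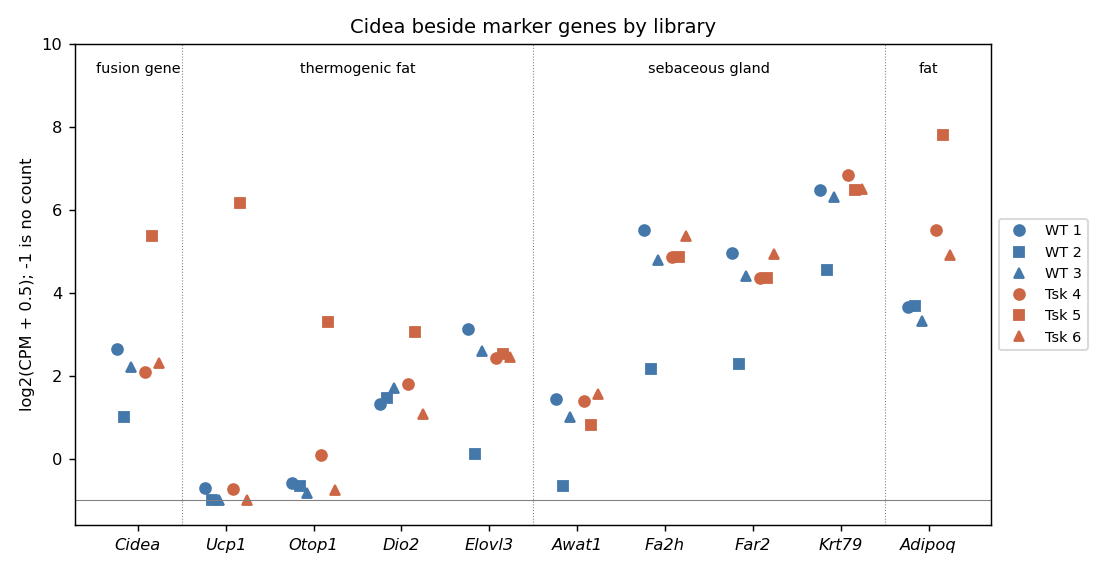
Level of Cidea and of single marker genes in the 6 libraries, as log2(CPM + 0.5), grouped by the cell type the markers are known from. Cidea, Ucp1, Otop1 and Dio2 are highest in Tsk replicate 5, and Cidea, Awat1, Fa2h, Far2 and Krt79 are lowest in WT replicate 2. The genes drawn were picked after their values were seen, and other genes of the same lists have other orders.

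Among the lipases, Lipe, the hormone-sensitive lipase that acts mainly on diglyceride (chromosome 7, 25379527 to 25398710, minus strand), stood at 24.2, 23.6 and 20.3 CPM in WT. In Tsk it stood at 59.8, 199.0 and 39.4 CPM, and its lowest Tsk library was 1.63 times the highest WT library. The log2 fold change was 2.13 ± 0.57 (SE, edgeR adjusted p = 0.0945), with a 95% interval of 0.79 to 3.47. Lipe passed at 1.12 without Tsk replicate 5 (edgeR adjusted p = 0.0339) and at 2.51 without Tsk replicate 6 (edgeR adjusted p = 0.0417).

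Pnpla2, the lipase that takes the first fatty acid from triglyceride (chromosome 7, 141455198 to 141460743, plus strand), overlapped between the groups. It stood at 73.4, 99.7 and 89.1 CPM in WT and 102.8, 338.0 and 76.5 CPM in Tsk. Its log2 fold change was 0.98 ± 0.51 (SE, edgeR adjusted p = 0.335), and 0.04 without Tsk replicate 5. Mgll, the lipase of the last step (chromosome 6, 88724412 to 88828360, plus strand), stood at 79.4, 46.0 and 54.9 CPM in WT and 91.3, 185.0 and 84.7 CPM in Tsk. The groups were apart by a narrow margin, with the lowest Tsk library 1.07 times the highest WT library. The log2 fold change of Mgll was 1.00 ± 0.33 (SE, edgeR adjusted p = 0.136), and 0.55 without Tsk replicate 5.

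G0s2 encodes a small protein that binds and inhibits the lipase made from Pnpla2 (chromosome 1, 193272161 to 193273217, minus strand). WT replicate 1 was again the lowest library for both. G0s2 stood at 3.28, 9.70 and 7.01 CPM in WT and 10.4, 34.2 and 7.84 CPM in Tsk, with Tsk replicate 6 inside the WT range. The log2 fold change was 1.4 ± 0.62 (SE, edgeR adjusted p = 0.261), and 0.46 without Tsk replicate 5. G0s2 lies within the span of Lamb3, a laminin gene on the opposite strand that held 1096 to 1750 counts per library. Whether the authors' counting used strand is not given in the sources used here, so reads of the pair may not be fully told apart. The same holds for the overlap of Plin4 with Hdgfl2 (525 to 783 counts) and for opposite-strand genes at 0 to 25 counts that overlap Lipe, Cidea and Mgll. Mgll also overlaps Gm43999, Gm44001 and Gm44005 on its own strand (36 to 114 counts), whose reads strand cannot separate.

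**Figure D3:**
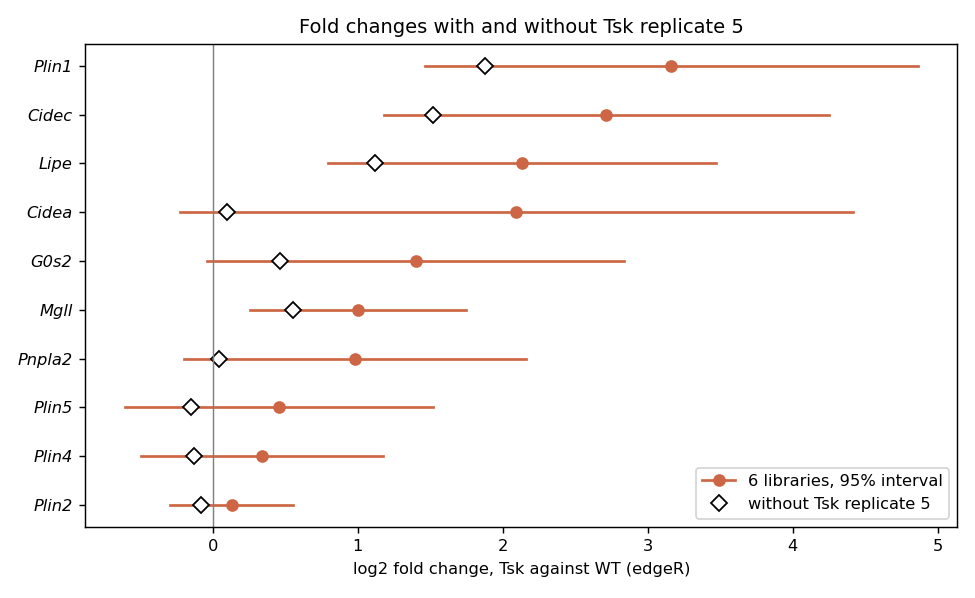
Log2 fold change of each gene in Tsk against WT from edgeR on all 6 libraries (circles, lines for the 95% interval) and without Tsk replicate 5 (open diamonds). On all 6 libraries the intervals of Plin1, Cidec, Lipe and Mgll lie above 0, and no interval is drawn for the diamonds. The diamonds of Plin2, Plin4, Plin5, Pnpla2 and Cidea lie between -0.15 and 0.10.

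Whether a gene passed depended on the tool, the filter and the libraries used. Plin1, Cidec and Lipe passed without Tsk replicate 5, where 1.66% of genes were called higher, and the same 3 without Tsk replicate 6, where 1.59% were. None passed in the 4 fits that left out another library. With a minimum count of 50, where 3.44% of genes were called higher, Plin1 alone passed (edgeR adjusted p = 0.0468).

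Levels were compared between genes after dividing CPM by the summed length of annotated exons. In WT skin the order was Plin4 (50.6 ± 16.7), Pnpla2 (28.9 ± 4.38), Plin2 (15.8 ± 2.32), Mgll (11.8 ± 3.41), Cidec (7.89 ± 0.784), G0s2 (7.65 ± 3.70), Lipe (3.86 ± 0.360), Cidea (3.39 ± 1.94), Plin1 (2.98 ± 0.754) and Plin5 (2.34 ± 0.973), in CPM per kb of exon (SD, n = 3). Cidec and G0s2, and each pair of neighbours from Lipe to Plin5, differed by less than the larger of their SDs. The ratio of the Tsk mean to the WT mean was 8.96 for Plin1, 6.56 for Cidec and 4.38 for Lipe. It was 4.3 for Cidea, 1.27 for Plin4 and 1.09 for Plin2. With the mean of Tsk replicates 4 and 6 alone, the ratios were 3.68 for Plin1, 2.86 for Cidec and 2.18 for Lipe. Those of Cidea, Plin4 and Plin2 were then 1.08, 0.915 and 0.944. In Tsk replicate 5 the levels of Pnpla2 (111.9), Cidec (110.1) and Plin4 (99.4) were close to each other in CPM per kb.

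Ratios of 2 genes within a library depend little on the scaling between libraries. They were taken on log2(CPM + 0.5), and without the added 0.5 the group differences printed here as 0.94 and 0.48 become 0.86 and 0.54. The 6 pairs were compared with a two-sided exact permutation test, which cannot go below p = 0.10 with 3 libraries against 3. The log2 ratio of Plin1 to Plin2 was -2.11, -1.43 and -2.43 in WT and 0.23, 1.80 and -0.36 in Tsk. It differed by 2.54 between the groups, and by 1.92 without Tsk replicate 5 (exact permutation p = 0.10 on all libraries, 0.15 after Benjamini-Hochberg adjustment over the 6 pairs). For Plin1 to Plin5 the difference was 2.31, and 1.93 without Tsk replicate 5 (exact permutation p = 0.10, adjusted 0.15). The log2 ratio of Lipe to Pnpla2 was -1.58, -2.05 and -2.11 in WT and -0.78, -0.76 and -0.95 in Tsk, so the 3 Tsk libraries lay close together even though Tsk replicate 5 held several times more of both transcripts. The difference between the groups was 1.08, and 1.05 without Tsk replicate 5, which 3 libraries against 3 cannot bring past the threshold (exact permutation p = 0.10, adjusted 0.15).

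For the inhibitor against its target, the log2 ratio of G0s2 to Pnpla2 was -3.24, -3.29 and -3.21 in Tsk and -4.29, -3.30 and -3.58 in WT. The groups differed by 0.48 and by 0.19 without WT replicate 1, and WT replicate 2 lay within 0.01 of Tsk replicate 5 (exact permutation p = 0.10, adjusted 0.15). For Cidec to Cidea the difference of 0.94 lay within overlapping groups (exact permutation p = 0.30). Plin1 and Adipoq, the gene of the fat hormone adiponectin, kept nearly the same ratio in every library, with log2 values of 0.10 to 0.46 in WT and 0.29 to 0.50 in Tsk (difference 0.13, exact permutation p = 0.30). Over the same libraries Plin1 itself ran from 10.2 to 270.7 CPM. Adipoq was the only one of the fat markers paired with Plin1, so the ratio says nothing of the others.

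**Figure D4:**
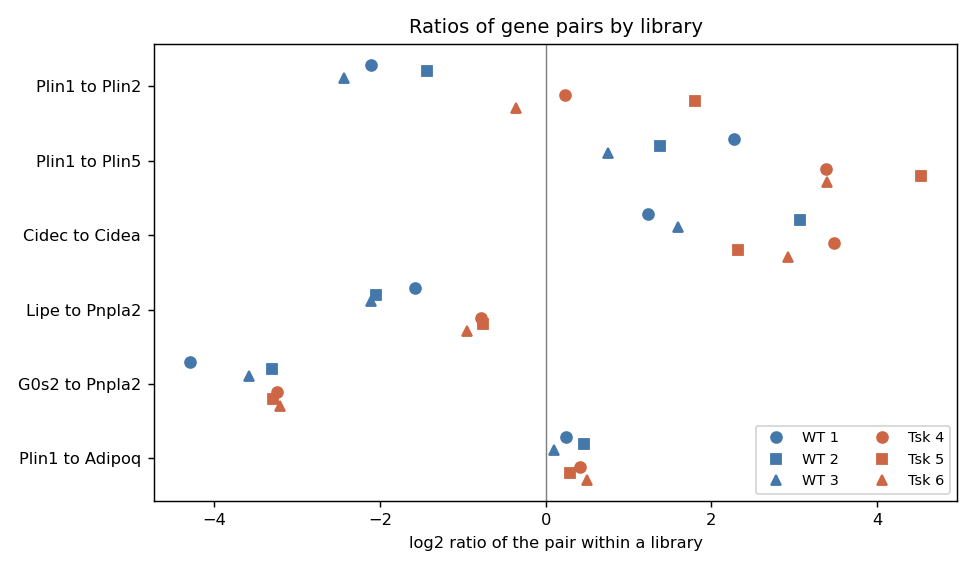
Log2 ratio of 6 gene pairs within each library, with WT above Tsk in each row. The Plin1 to Plin2, Plin1 to Plin5 and Lipe to Pnpla2 ratios are higher in each Tsk library than in each WT library. That of G0s2 to Pnpla2 is too, but narrowly, with WT replicate 2 at -3.30 and Tsk replicate 5 at -3.29. The Plin1 to Adipoq ratio spans only 0.10 to 0.50 over the 6 libraries.

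The genes whose pattern was most like that of Plin1 over the 6 libraries were Trarg1, Cfd, Adipoq, Lgals12, Ipo9 and Ehd2, with Pearson's r of 0.993 to 0.999 among 15309 genes compared. Cfd, the complement factor secreted by fat cells, rose by 2.56 ± 0.54 (SE, edgeR adjusted p = 0.0444), whereas Ipo9 stood at 0.17 ± 0.11, so likeness in pattern does not mean likeness in size. For Plin5 they were Hadhb, Tmem50b, Tnfaip1, Atraid, Glrx5 and Sqor (r of 0.988 to 0.996). Hadhb, a subunit of the mitochondrial enzyme of fatty acid oxidation, stood at 69.3, 134.2 and 123.3 CPM in WT and 112.3, 202.3 and 79.2 CPM in Tsk. These correlations are descriptions over 6 libraries that share their depth and scaling, and Tsk replicate 5 is the highest point of each gene named.

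The other genes of droplet formation and lipolysis were taken as 5 lists with 60 genes, of which 58 were tested. With edgeR on all 6 libraries Npr1, a receptor of natriuretic peptides, rose, and no gene fell. It stood at 9.39, 14.9 and 9.98 CPM in WT and 23.2, 33.7 and 39.3 CPM in Tsk, a rise of 1.49 ± 0.24 on the log2 scale (SE) with an edgeR adjusted p of 0.0178, and here Tsk replicate 5 was not the highest. Without Tsk replicate 5, 5 of the 58 passed as higher, against 1.66% of all genes in that fit. The list of lipolytic signalling had 1 of 15 genes called and a median of 1.11. Its members Hcar1, the lactate receptor that restrains lipolysis (3.39 ± 0.84), Prkar2b, a regulatory subunit of protein kinase A (2.90 ± 0.85), Pde3b, the insulin-responsive phosphodiesterase (2.21 ± 0.64), and Adrb3, the adrenergic receptor of fat (2.19 ± 0.68), were apart between the groups without passing (SE, edgeR adjusted p of 0.0692 to 0.132), and were named after their values were seen. The kinase A genes Prkaca and Prkar1a in the same list, also named after their values were seen, stood at -0.19 ± 0.20 and -0.13 ± 0.17. Of the 15 genes, 12 had a log2 fold change above 0. Every Tsk library was above every WT library for 9 of the 15, against 14.1% of all genes tested.

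In the list of triglyceride synthesis, 0 of 11 tested genes were called by edgeR, with a median of 0.61. Dgat2, which adds the last fatty acid, stood at 25.6, 33.1 and 31.4 CPM in WT and 84.3, 315.7 and 53.3 CPM in Tsk, and Pck1, an enzyme of glycerol supply, stood at 3.39 ± 0.93 on the log2 scale (SE, edgeR adjusted p = 0.1). Fatty acid and glycerol handling had 0 of 10 genes called and a median of 0.52, with the fatty acid binding protein gene Fabp4 at 2.33 ± 0.67 and the transporter gene Slc27a1 at 0.80 ± 0.24. The list of other lipases and cofactors had 0 of 10 genes called and a median of 0.45, with Ces1d at 2.75 ± 0.89 and the lysosomal lipase gene Lipa at 0.57 ± 0.22. Droplet assembly had 0 of 12 genes called and a median of 0.08, with Bscl2, the gene of seipin, at 0.88 ± 0.25, Hsd17b11 at 0.83 ± 0.21 and the coat gene Plin3 at -0.16 ± 0.14. These 4 lists held 5, 5, 3 and 2 genes with an unadjusted edgeR p under 0.05 in the higher direction, in the order given. Over all genes tested 12.1% had such a p. DESeq2 called 14 of the 58 genes, all higher, where it called 5.79% of all genes higher.

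**Figure D5:**
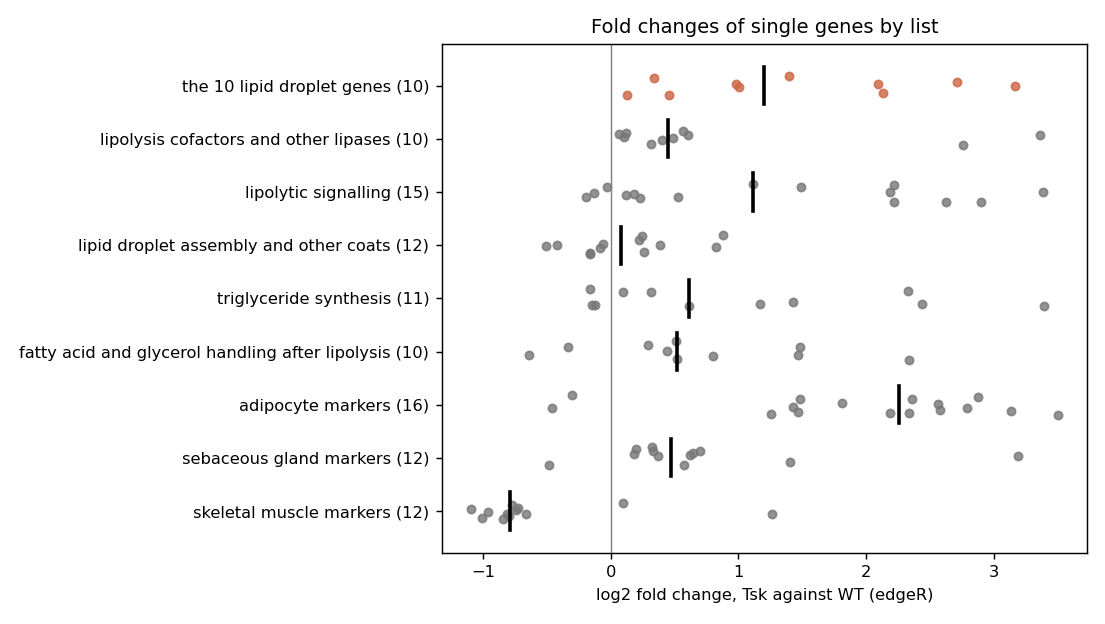
Log2 fold change of single genes in Tsk against WT for the 10 lipid droplet genes, the 5 other lists of the pathway and 3 marker lists, with the number tested in brackets and a bar at the median. Medians run from -0.79 for skeletal muscle markers to 2.26 for adipocyte markers, and the 10 lipid droplet genes have 1.20.

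Markers of fat cells that are not among the 10 genes had a median log2 fold change of 2.26, and 1.06 without Tsk replicate 5. Of these 16 markers 3 rose, Lep, Cfd and Cebpa, and none fell, while 4 of the 16 are also in the pathway lists. With no filter on low counts, or without any 1 of the WT libraries, 0 of the 16 passed with edgeR. Lep, the gene of leptin, rose by 3.50 ± 0.69 (SE, edgeR adjusted p = 0.0414) and the transcription factor gene Cebpa rose by 1.43 ± 0.29 (SE, edgeR adjusted p = 0.0366). The mean log2 level of the 16 markers was 4.30 to 4.63 in WT and 5.05 to 7.19 in Tsk. Their summed CPM overlapped between the groups, with 3018 to 4603 in WT and 2940 to 6997 in Tsk. Most of the WT sum was Car3, which skeletal muscle also expresses and which stood at 3089 ± 592 CPM in WT and 2250 ± 358 CPM in Tsk (SD, n = 3). Sebaceous gland markers had a median of 0.47 with 0 of 12 called by edgeR and 2 higher at an unadjusted p under 0.05. Their sums of 264.2 to 732.5 CPM in WT lay below the 785.6 to 6073 CPM of Tsk, mostly through Scd1, which fat cells also express. Fibroblast markers had a median of 1.04 and macrophage markers 0.53, with 0 of 6 and 0 of 8 called by edgeR (4 each higher at an unadjusted p under 0.05). Keratinocyte markers had a median of -0.25 with 1 of 6 called, Lor, and the 7 tested thermogenic markers a median of -0.26 with 0 called by edgeR and 1 at an unadjusted p under 0.05. The skeletal muscle markers had a median of -0.79, with 0 of 12 called by edgeR. At an unadjusted edgeR p under 0.05, 7 of them were lower and 1 higher. Over all 19971 genes tested, 1587 were lower and 2420 higher at that p. The part of these cell types in the 10 genes was not tested. For the 10 lipid droplet genes, the mean log2 level was 4.46, 4.62 and 4.58 in WT and 5.25, 6.88 and 4.97 in Tsk, and their share of all counts was 0.0477, 0.0525 and 0.0516% against 0.0765, 0.216 and 0.0671%. Both measures put each Tsk library above each WT library, with Tsk replicates 4 and 6 closer to WT than to Tsk replicate 5. The share uses library totals. The summed CPM of the 10 genes after TMM scaling overlapped, at 465.3, 638.3 and 581.7 in WT and 720.2, 1935 and 595.1 in Tsk, with Tsk replicate 6 below WT replicate 2.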

How the data were processed

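RNA of dorsal skin from 3 WT and 3 Tsk samples, taken at day 40, was sequenced from a stranded library kit that removes rRNA, per the labels' protocols. Reads were processed with STAR and Partek 7.0 on mm10, per the submitters' processing notes. How strand and shared reads were counted, and on which gene models, is not stated there. Estimated counts were deposited by the authors for each gene, 34.8 to 37.3% of which were not whole in a library, and these expected counts were rounded. The authors also deposited CPM values and a TMM-scaled signal, used only as alternatives.

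Counts were tested with edgeR 4.0.16 (R 4.3.3), all 6 libraries, the quasi-likelihood F-test with robust dispersions, TMM factors and a minimum count of 10. Benjamini-Hochberg adjusted p-values over 19971 genes were called under 0.05. In a check on a single simulated data set, larger changes were mostly recovered and smaller ones less often. The share of false calls in it was above the nominal one. A single run cannot give the rate in general, and calls near the threshold may be less certain than their adjusted p states. Exon lengths came from GENCODE M21, whose spans matched all 10 genes, and ends are printed inclusively. Promoters came from RefSeq (GRCm38.p6), and Cidea was not searched.

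Groups came from sample titles. The labels do not say that samples were separate animals, so a p-value covers only the variation among the deposited samples, which may be technical. Within a group, chi-square per degree of freedom between libraries was at least 8.85, above sampling noise.

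The members, lists and alternatives were chosen with earlier results of these data known. The named genes were the 10 members, Fbn1, called genes of each pathway list or the 2 with the smallest p, the 2 most abundant of each marker list where used, and the 6 genes most like Plin1 and Plin5. All other genes given with values (called markers, single thermogenic and sebaceous markers, Otop1, and Hcar1, Prkar2b, Pde3b, Adrb3, Prkaca, Prkar1a and Plin3) were named after their values were seen. Alternatives were other scalings, filters, DESeq2 1.42.0, limma 3.58.1 fits and leaving out each library.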

Additional observations from a re-analysis of the deposited data

How the results depend on the processing

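The number of the 10 lipid droplet genes past the threshold, 0 with edgeR, was 1 with a minimum count of 50, 4 with DESeq2 and 0 to 3 when 1 library was left out. Their median log2 fold change ranged from 0.28 to 1.55 when 1 library was left out, with 0.28 without Tsk replicate 5. Plin2, Plin4 and Plin5 ranged from -0.08, -0.13 and -0.15 without that library to 0.25, 0.56 and 0.77 without another. The log2 fold changes of the other 7 genes and the differences of the 6 log2 ratios kept their sign in each alternative run.

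Over all genes, 683 were called (544 higher, 139 lower). The count was 1791 with library totals as scaling (1695 higher, 96 lower), 1157 with no filter, 1592 with DESeq2, 1576 with limma-voom and sample weights, 1279 with limma-trend on the deposited TMM values (1166 higher, 113 lower), and 1916 or, with a pseudocount of 1, 1895 on the deposited CPM (1813 and 1794 higher). It ran from 63 (without WT replicate 3) to 1381 (without WT replicate 1) when 1 library was left out. The median of all genes was 0.25 with library totals against -0.03, so folds shift upward under that scaling. The other pathway genes had 1 called, and 6, 3, 14, 3, 2, 6 and 5 under those 7 settings in the same order, and 0 to 7 with 1 library left out. Without WT replicate 1, 3 of these genes were called higher and 2 lower. The adipocyte markers had 3 called, 0 with no filter, 8 with DESeq2 and 0 to 5 with 1 library left out, with 0 without any single WT library. The cause of these moves was not tested. No paired analysis was possible because WT libraries are numbered 1 to 3 and Tsk libraries 4 to 6, with no number shared. Depth limits the genes with fewest counts, such as Cidea, which had 23 in WT replicate 2.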
